A study of Mus musculus with 6 samples.

Results

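Meiotic chromosomes are held together by the synaptonemal complex and exchange DNA through programmed breaks. A list of 34 genes, most of which encode this machinery, was followed in mouse spermatogonia. The genes were chosen by name from a table of 31918 genes, and each of the 34 matched 1 row. The libraries came from cells with bright (Bright, 3 libraries) or dim (Dim, 3 libraries) ID4-GFP fluorescence, taken from testes of pups at postnatal day 8. All 6 libraries carry the genotype Id4-eGfp (LT11), a transgene whose fluorescence reports on Id4, and both groups carry it. Bright is labelled high and Dim low for Id4 expression. The labels do not say whether libraries came from separate animals or pools, so p-values measure the spread between these libraries, which may be technical.

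In meiotic prophase, homologous chromosomes are first organised along protein axes that hold cohesin, then zipped together by the synaptonemal complex, in which transverse filaments bridge the axes through a central element. In the same period SPO11 cuts the DNA, the recombinase DMC1 carries out strand exchange with the homologue, and the MutS and MutL homologues turn part of the joint molecules into crossovers. Spermatogonia divide by mitosis and precede these events. The comparison asks how cells with high and low Id4 differ, here mostly in genes whose products act at the later stage.

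Levels are FPKM, fragments scaled to transcript length and library size, so they can be compared between genes, with the limit that libraries differed by transcript length, as described further on. A total of 33 of the 34 genes were at 1 FPKM or more in all 6 libraries, and 23 were at 10 FPKM or more in all 6. Averaged over the libraries, 24 lay above 13.5 FPKM, the median of the 13416 genes tested. The gene below 1 FPKM was Meiob, which encodes a protein bound to single-stranded DNA, at 0.633, 0.672 and 0.696 FPKM in Bright 1, 2 and 3, against 0.612, 0.82 and 0.69 FPKM in Dim 1, 2 and 3. Meiob failed the filter of at least 1 FPKM in at least 3 libraries and was not tested. The highest mean levels were those of Syce2 (154.6 FPKM), Stag3 (146.2 FPKM), Tex15 (133.3 FPKM) and Sycp3 (126.6 FPKM). The lowest after Meiob were Msh4 (3.40 FPKM) and Spo11 (3.74 FPKM). Several neighbours in this order did not differ beyond their spread, Tex15 for example ranging from 92.8 to 183.6 FPKM over the libraries.

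**Figure D1:**
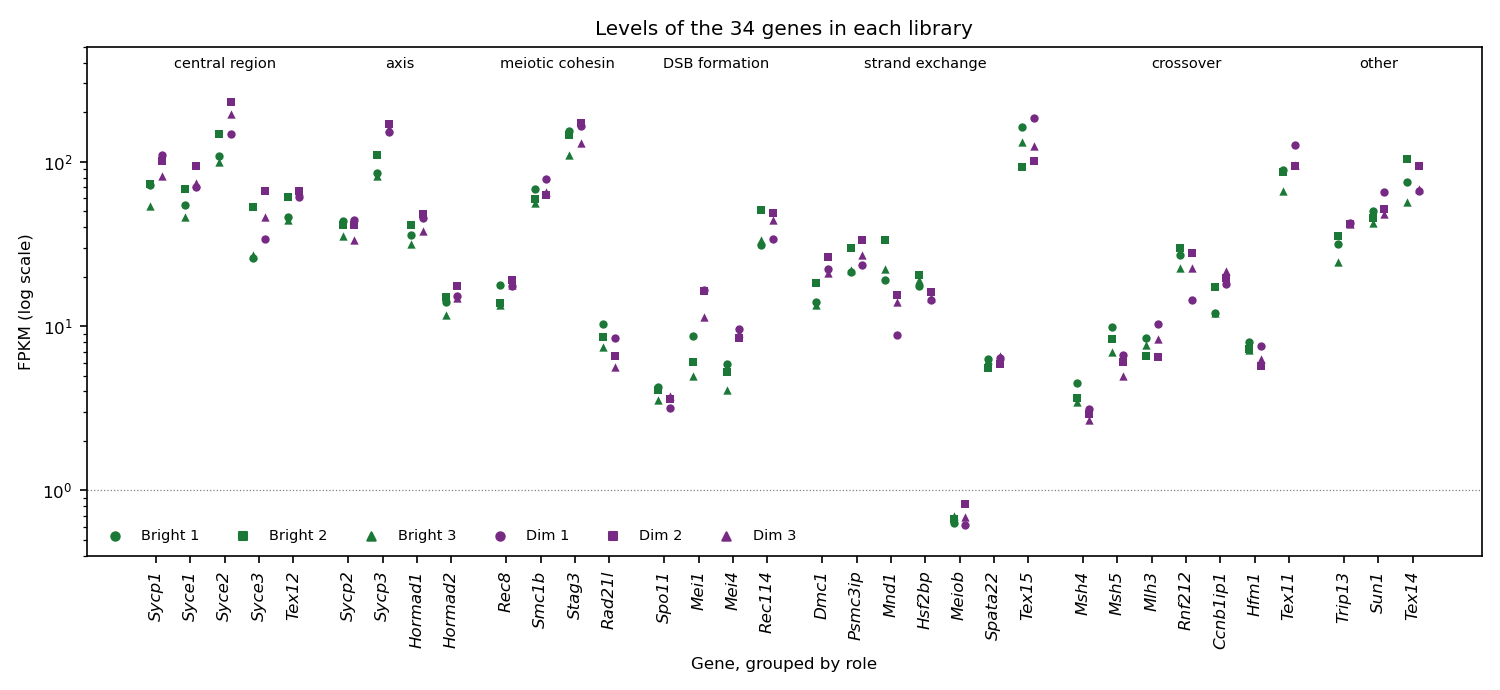
FPKM (log axis) of the 34 genes in each library, Bright in green left of Dim in purple, with the marker shape giving the library number and a dotted line at 1 FPKM. Meiob alone lies below 1 FPKM. All Dim points lie above all Bright points in 11 of the 33 tested genes (33.3%, against 20.8% of all genes tested), among them the called genes Sycp3, Mei1, Mei4 and Dmc1. The opposite holds in 4 (12.1%, against 20.4% of all genes tested), among them the called gene Mnd1.

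All 9 stem cell markers, Id4 among them, were called higher in Bright, against 12.0% of all genes tested. They summed to 393.4 to 415.3 FPKM in Bright, against 31.1 to 47.0 FPKM in Dim. The germ cell markers Ddx4, Dazl, Mael and Tex101 together summed to 1041 to 1286 FPKM in Bright, against 1264 to 1355 FPKM in Dim. Of 12 markers of pachytene spermatocytes and later germ cells, 7 (Pgk2, Adam3, Acr, Prm1, Prm2, H1fnt and Acrv1) stayed below 1 FPKM in all 6 libraries, and 5 of these were at 0 in at least 1 library. The list summed to 29.1 to 31.0 FPKM in Bright, against 22.6 to 25.3 FPKM in Dim. Within it, Ldhc at 3.08 ± 0.262 FPKM in Bright, against 1.31 ± 0.16 FPKM in Dim and Tnp1 at 5.32 ± 1.18 FPKM in Bright, against 1.82 ± 1.03 FPKM in Dim (SD, n = 3 each) were called higher in Bright (limma adjusted p = 0.00514 and 0.019). Hspa2, the marker of this list with the highest level, lay the other way without overlap, at 7.92 ± 0.695 FPKM in Bright, against 11.3 ± 1.56 FPKM in Dim (SD, n = 3 each, limma adjusted p = 0.05995), and was not called. Bright 3 stood apart, with 6 Leydig markers at a summed 1747 FPKM against 2.13 and 2.53 FPKM in Bright 1 and 2 and 1.65 to 2.56 FPKM in Dim. Its 9 Sertoli markers summed to 197.1 FPKM, against 8.61 to 22.2 FPKM in the other 5 libraries. The 4 macrophage markers summed to 87.8 FPKM in Bright 3, 32.97 FPKM in Dim 1 and 35.7 FPKM in Dim 2, against 2.31 to 2.89 FPKM in the remaining libraries. Of the 34 genes, 24 (70.6%) were lower in Bright 3 than in both other Bright libraries, against 44.0% of all genes tested, with a median log2 difference of -0.26 to the mean of Bright 1 and 2, against -0.10 over all genes tested. The 4 endothelial markers were all called higher in Bright, against 12.0% of all genes tested. They summed to 6.42 to 16.6 FPKM in Bright, against 2.45 to 2.87 FPKM in Dim. The part of these cells in the results was not tested, and results are given without Bright 3 where they change. In such bulk samples fewer cells of a type and less RNA per cell cannot be told apart.

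Bright and Dim differed in 5 of the 33 tested genes (15.2%), by limma on log2(FPKM + 1) with Benjamini-Hochberg adjustment over all 13416 genes and a threshold of 0.05. Over all genes tested, 22.5% were called. In Dim, 4 of the 33 (12.1%) were higher, against 10.5% of all genes, and 1 (3.03%) was higher in Bright, against 12.0% of all genes. At an unadjusted p under 0.05, 10 of the 33 (30.3%) were higher in Dim and 3 (9.09%) in Bright, against 17.7% of all genes in each direction. Bright and Dim values were fully separate in 15 of the 33 (45.5%), against 41.1% of all genes. Dim was fully above Bright in 11 of the 33 (33.3%), against 20.8% of all genes, and Bright fully above Dim in 4 (12.1%), against 20.4%. The median log2 fold change (Bright minus Dim, on log2(FPKM + 1)) of the 33 was -0.20, beside -0.03 over all genes tested. It was negative in 23 of 33 (69.7%) and in 52.8% of all genes. Without Bright 3, 3 were called, all higher in Dim (Sycp3, Mei1 and Mei4), against 8.37% of all genes toward Dim. The median was -0.13 in that fit, beside -0.01 over all genes. Without Bright 2, 9 were called, all higher in Dim, against 9.13% of all genes toward Dim. Without Dim 3 there were 3, all higher in Dim, against 6.54%.

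**Figure D2:**
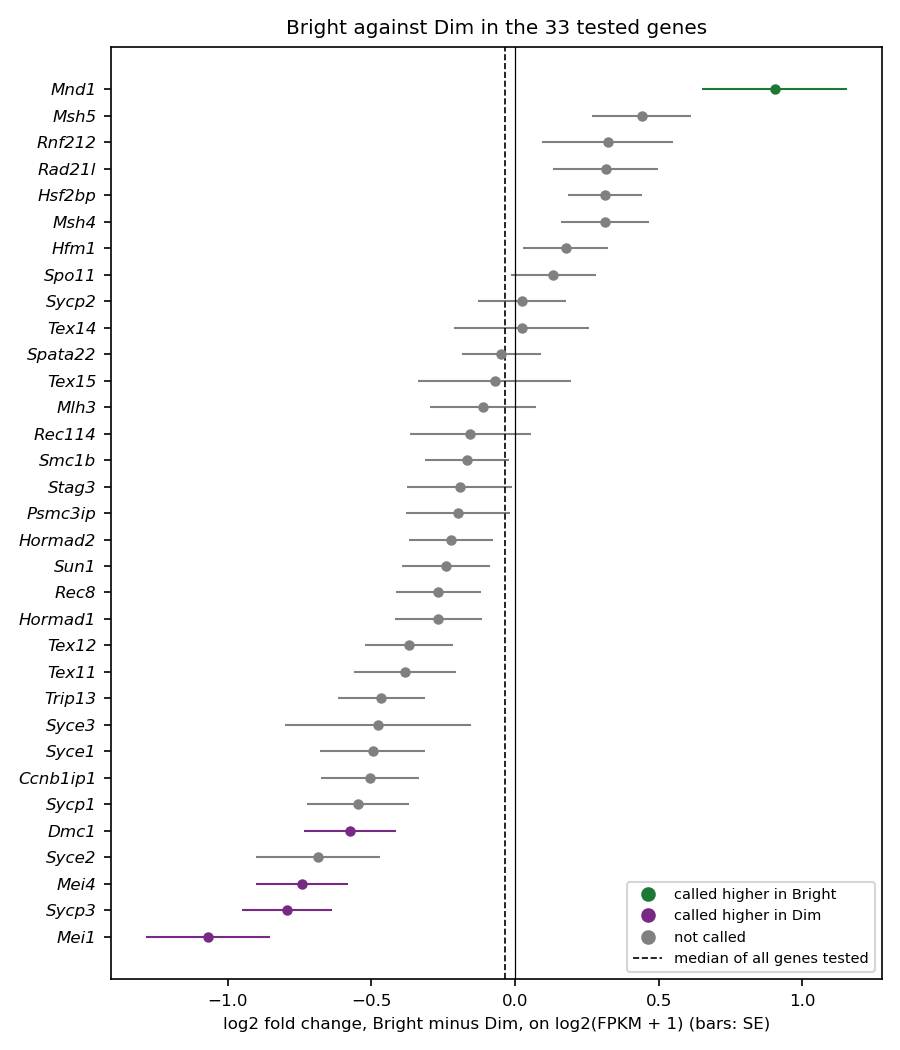
Log2 fold change of the 33 tested genes, Bright minus Dim on log2(FPKM + 1), with standard errors as bars, and the median of all genes tested (-0.03) as a dashed line. Mei1, Sycp3, Mei4 and Dmc1 were called higher in Dim and Mnd1 higher in Bright, and most of the remaining points lie left of 0 without a call.

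The axis, the scaffold at the base of each homologue, held 1 called gene of 4, higher in Dim (25.0%, against 10.5% of all genes toward Dim). Sycp3, which encodes the main lateral element protein, measured 85.6, 110.6 and 82.3 FPKM in Bright 1, 2 and 3, against 151.0, 169.3 and 160.9 FPKM in Dim 1, 2 and 3. Every Dim library was above every Bright library. The means were 92.8 ± 15.4 FPKM in Bright, against 160.4 ± 9.15 FPKM in Dim (SD, n = 3 each), with a log2 fold change of -0.79 ± 0.16 SE (limma adjusted p = 0.00845). The call was kept with each library left out in turn (adjusted p = 0.00422 to 0.0396). Sycp3 (ENSMUSG00000020059, GRCm38 chromosome 10, 88459569 to 88473236) shares 52.2% of its annotated exon bases with Chpt1, a gene on the other strand that encodes a cholinephosphotransferase. Chpt1 was also higher in Dim, at 29.3 ± 3.48 FPKM in Bright, against 46.3 ± 0.691 FPKM in Dim (adjusted p = 0.00945), and with no strand stated for these libraries, reads of these genes cannot be told apart where they overlap.

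The other axis genes were not called. Sycp2, the lateral element partner of Sycp3, measured 43.9, 41.2 and 35.1 FPKM in Bright, against 44.0, 41.0 and 33.3 FPKM in Dim (log2 fold change 0.03, adjusted p = 0.924). Hormad1, a HORMA domain protein of unsynapsed axes, measured 35.9, 41.0 and 31.5 FPKM in Bright, against 45.2, 48.1 and 37.7 FPKM in Dim. Its relative Hormad2 measured 14.0, 15.0 and 11.7 FPKM in Bright, against 15.2, 17.7 and 14.9 FPKM in Dim. The groups overlapped in all 3 genes.

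In the central region of the complex all 5 genes had a negative log2 fold change, between -0.69 and -0.37, and none passed the adjusted threshold, while 4 were under 0.05 without adjustment, all toward Dim, a side that holds 17.7% of all genes tested. Sycp1, the transverse filament protein, measured 72.7, 73.6 and 53.6 FPKM in Bright, against 110.2, 101.1 and 81.6 FPKM in Dim (adjusted p = 0.0585). Syce2, a central element protein and the gene with the highest mean, measured 108.2, 147.1 and 99.1 FPKM in Bright, against 147.4, 229.9 and 196.1 FPKM in Dim. Dim lay above Bright in every library of both genes, although Bright 2 and Dim 1 were close for Syce2. The adjusted p of Syce2 was 0.0515 with all libraries, and it was 0.0214 without Bright 2 and 0.0219 without Dim 1. It rose to 0.135 without Bright 1, 0.147 without Bright 3, 0.15 without Dim 2 and 0.152 without Dim 3. Without Bright 3, Sycp1 had a log2 fold change of -0.40 (limma adjusted p = 0.14).

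Syce1, a central element protein that binds SYCP1, measured 54.8, 68.7 and 45.9 FPKM in Bright, against 70.1, 93.7 and 74.7 FPKM in Dim (adjusted p = 0.0883). Tex12, the partner of SYCE2, measured 45.8, 61.0 and 43.9 FPKM in Bright, against 61.5, 66.2 and 66.0 FPKM in Dim (adjusted p = 0.124). In both genes the groups did not overlap. Syce3, a small central element protein, measured 26.1, 52.8 and 27.1 FPKM in Bright, against 34.1, 66.1 and 45.9 FPKM in Dim, with overlap and a log2 fold change of -0.48 (adjusted p = 0.337). Without Bright 2, Syce1, Syce2 and Tex12 were called higher in Dim (adjusted p = 0.036, 0.0214 and 0.0378). The adjusted p of Syce1 reached 0.254 without Dim 2, and that of Tex12 reached 0.288 without Bright 1.

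None of the 4 meiotic cohesin genes, which encode subunits of the ring that holds sister chromatids, was called, and the groups overlapped in all of them. At an unadjusted p under 0.05 there were 0 as well, against 17.7% of all genes in each direction. Stag3 measured 153.1, 146.2 and 110.5 FPKM in Bright, against 164.3, 173.1 and 130.1 FPKM in Dim, and Smc1b 68.2, 59.6 and 56.0 FPKM in Bright, against 78.7, 62.6 and 65.6 FPKM in Dim. The kleisin gene Rec8 measured 17.9, 13.8 and 13.4 FPKM in Bright, against 17.6, 19.1 and 17.9 FPKM in Dim. Rad21l, the other meiotic kleisin, was the cohesin gene with a positive log2 fold change (0.31, adjusted p = 0.255), at 10.3, 8.59 and 7.41 FPKM in Bright, against 8.45, 6.54 and 5.63 FPKM in Dim.

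The cohesin subunits used in mitosis were set beside them. The 9 mitotic counterparts held 0 called genes in either direction, against 22.5% of all genes tested. At an unadjusted p under 0.05 there was 1, Smc3, a subunit shared by both kinds of ring. It lay toward Bright (11.1% of the list, against 17.7% of all genes). Per length, Smc1b stood above Smc1a, with ratios of 2.02, 1.78 and 1.75 in Bright and 2.44, 2.16 and 2.73 in Dim. Rec8 stood far below Rad21, the mitotic kleisin, with ratios of 0.0814, 0.0675 and 0.0758 in Bright and 0.0942, 0.133 and 0.102 in Dim. Stag3 over Stag1, the more abundant counterpart, was 1.75 ± 0.236 in Bright and 1.90 ± 0.406 in Dim. Stag3 exceeded Stag2 by 3.73 ± 0.705 times in Bright and 5.10 ± 1.56 times in Dim (SD, n = 3 each), with overlapping values. Both meiotic kleisins were low relative to Rad21, Rad21l with a mean ratio of 0.0435 ± 0.00277 in Bright and 0.041 ± 0.00758 in Dim (SD, n = 3 each).

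Break formation held the gene with the log2 fold change furthest from 0 among the 33. Mei1 (ENSMUSG00000068117), which is needed for breaks in mouse meiosis, measured 8.65, 6.07 and 4.98 FPKM in Bright, against 16.5, 16.3 and 11.4 FPKM in Dim. Mei4 (ENSMUSG00000043289, GRCm38 chromosome 9, 81863670 to 82206007), a component of the break machinery on the axis, measured 5.89, 5.25 and 4.07 FPKM in Bright, against 9.66, 8.51 and 9.02 FPKM in Dim. The groups did not overlap in either gene. The log2 fold changes were -1.07 ± 0.22 SE for Mei1 and -0.74 ± 0.16 SE for Mei4 (limma adjusted p = 0.00932 and 0.012). The ratio of mean levels, Dim over Bright, was 2.24 for Mei1 and 1.79 for Mei4. Both calls were kept with each library left out in turn, with adjusted p of 0.0063 to 0.0339 for Mei1 and 0.0168 to 0.0451 for Mei4.

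The partners of these genes did not pass. Spo11, the catalytic subunit, measured 4.27, 4.06 and 3.55 FPKM in Bright, against 3.19, 3.61 and 3.77 FPKM in Dim (log2 fold change 0.13, adjusted p = 0.565). Rec114, which binds MEI4, measured 31.4, 50.6 and 33.2 FPKM in Bright, against 34.1, 48.5 and 44.5 FPKM in Dim (adjusted p = 0.635). Both sets overlapped between the groups. Rec114 shares 26.9% of its annotated exon bases with Nptn on the other strand, which measured 99.3 ± 12.0 FPKM in Bright, against 85.1 ± 2.24 FPKM in Dim. The level of Rec114 may therefore hold reads of Nptn, whose share was not tested.

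Of 6 tested strand exchange genes, 1 was called in each direction. That is 16.7% each, against 10.5% of all genes toward Dim and 12.0% toward Bright. Dmc1 (ENSMUSG00000022429), the meiotic recombinase, measured 14.1, 18.3 and 13.5 FPKM in Bright, against 22.2, 26.2 and 21.1 FPKM in Dim. Mnd1 (ENSMUSG00000033752, GRCm38 chromosome 3, 84087933 to 84155786), which forms a heterodimer with PSMC3IP that stimulates DMC1, measured 19.0, 33.3 and 22.3 FPKM in Bright, against 8.88, 15.4 and 14.1 FPKM in Dim. Groups did not overlap in either gene, and the directions were opposite. The log2 fold change was -0.57 ± 0.16 SE for Dmc1 (limma adjusted p = 0.0338) and 0.90 ± 0.25 SE for Mnd1 (adjusted p = 0.0347).

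Both calls were lost when certain single libraries were left out. The call of Dmc1 held without Bright 2 (adjusted p = 0.0204) and was lost without any other library, at 0.0949 without Bright 1, 0.0919 without Bright 3, and 0.0541, 0.115 and 0.07 without Dim 1, 2 and 3. The call of Mnd1 held without Bright 1 (0.0305) and Dim 2 (0.0362) and was lost without Bright 2 (0.0741), Bright 3 (0.0765), Dim 1 (0.0664) and Dim 3 (0.0685). Both directions stayed the same in all 6 of these fits.

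Of the other strand exchange genes, Psmc3ip measured 21.3, 29.9 and 21.8 FPKM in Bright, against 23.7, 33.4 and 27.0 FPKM in Dim, with overlap (adjusted p = 0.477). It shares 21.2% of its exon bases with Mlx on the other strand, at 27.9 ± 1.49 FPKM in Bright, against 24.0 ± 1.36 FPKM in Dim. Hsf2bp, which brings BRCA2 to meiotic breaks, measured 17.5, 20.5 and 19.0 FPKM in Bright, against 14.4, 16.1 and 14.9 FPKM in Dim. Its groups did not overlap, Bright being higher, and it did not pass (log2 fold change 0.31, adjusted p = 0.122). Spata22, the partner of MEIOB, measured 6.29, 5.55 and 6.26 FPKM in Bright, against 6.37, 5.85 and 6.59 FPKM in Dim, above Meiob in every library. The GENCODE M21 annotation gives its exons again under Olfr20 and a further Spata22 entry, so this level is uncertain. Tex15, which is needed for loading of recombinases and also acts in transposon silencing, measured 163.9, 92.8 and 132.4 FPKM in Bright, against 183.6, 101.6 and 125.3 FPKM in Dim. These last 2 overlapped between the groups (adjusted p = 0.827 and 0.873).

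The 7 crossover genes held 0 calls, against 22.5% of all genes tested. At an unadjusted p under 0.05 there was 1 in each direction (Msh5 higher in Bright and Ccnb1ip1 higher in Dim). That is 14.3% each, against 17.7% of all genes in each direction. The MutS homologues Msh4 and Msh5 act as a heterodimer that stabilises joint molecules. Msh5 measured 9.85, 8.34 and 6.93 FPKM in Bright, against 6.69, 6.05 and 4.94 FPKM in Dim, and Msh4 4.49, 3.67 and 3.47 FPKM in Bright, against 3.15, 2.90 and 2.70 FPKM in Dim. Bright lay above Dim in every library of both, and neither passed (adjusted p = 0.105 and 0.184). Ccnb1ip1, the ubiquitin ligase HEI10, measured 12.0, 17.3 and 12.1 FPKM in Bright, against 18.01, 19.7 and 21.5 FPKM in Dim, without overlap (adjusted p = 0.0665, with 0.0226 without Bright 2 and 0.206 without Dim 3). It shares 12.4% of its exon bases with Rpph1 on the same strand. Tex11, an X-linked gene needed for crossovers, measured 88.6, 87.1 and 66.1 FPKM in Bright, against 126.7, 94.5 and 95.3 FPKM in Dim, also without overlap (adjusted p = 0.163).

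Rnf212, the other crossover ligase gene, measured 27.3, 29.7 and 22.7 FPKM in Bright, against 14.5, 27.7 and 22.7 FPKM in Dim, where Dim 1 was low. Mlh3, the MutL homologue, measured 8.49, 6.60 and 7.63 FPKM in Bright, against 10.3, 6.46 and 8.34 FPKM in Dim. Hfm1, a meiotic helicase gene, measured 8.04, 7.22 and 7.20 FPKM in Bright, against 7.54, 5.75 and 6.33 FPKM in Dim. The groups overlapped in these 3 genes.

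The 3 remaining genes were not placed in any role above. Trip13, the ATPase that removes HORMAD proteins from synapsed axes, measured 31.7, 35.3 and 24.7 FPKM in Bright, against 42.7, 42.0 and 41.6 FPKM in Dim. The Dim values had an SD of 0.573 FPKM and lay above all Bright values, and the gene missed the threshold (log2 fold change -0.47 ± 0.15 SE, limma adjusted p = 0.0594). It passed when libraries were scaled by their median ratio (0.0437) and without Bright 2 (0.0386). It did not pass without Bright 1 (0.101), Bright 3 (0.111), Dim 1 (0.116), Dim 2 (0.13) or Dim 3 (0.152). Sun1, which links telomeres to the nuclear envelope, measured 49.96, 45.3 and 42.6 FPKM in Bright, against 65.2, 51.5 and 47.9 FPKM in Dim. Tex14, a protein of the intercellular bridges that join dividing germ cells, measured 75.6, 104.4 and 57.1 FPKM in Bright, against 66.0, 94.7 and 68.7 FPKM in Dim. Both overlapped between the groups.

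Ratios between genes whose products act together were computed within each library. They use the same values as the calls above and are no separate support for them. Of 17 ratios computed, chosen after the values had been seen, the groups did not overlap in 6. Sycp3 over Sycp2 was 1.95, 2.69 and 2.34 in Bright and 3.43, 4.13 and 4.83 in Dim. Mnd1 over Psmc3ip was 0.891, 1.11 and 1.02 in Bright and 0.375, 0.46 and 0.523 in Dim. The measured levels of these heterodimer partners were thus near equal per length in Bright and unequal in Dim. Psmc3ip shares 21.2% of its exon bases with Mlx, and Sycp3 shares 52.2% with Chpt1. Both ratios may therefore hold reads of these other genes, whose share was not tested. Dmc1 over Mnd1 was 0.743, 0.549 and 0.605 in Bright and 2.496, 1.704 and 1.496 in Dim, on opposite sides of 1. Other pairs overlapped between the groups. Msh5 over Msh4 was 2.16 ± 0.142 in Bright and 2.02 ± 0.16 in Dim, and Hormad1 over Hormad2 was 2.67 ± 0.0874 in Bright and 2.74 ± 0.225 in Dim (SD, n = 3 each). Scaling of whole libraries cancels in such ratios, but the length effect described further on does not where the genes differ in length, as Sycp3 (1169 bases) and Sycp2 (5717 bases) do. With 3 libraries against 3 an exact two-sided permutation test cannot give a p under 0.1, and none is given for these ratios.

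**Figure D3:**
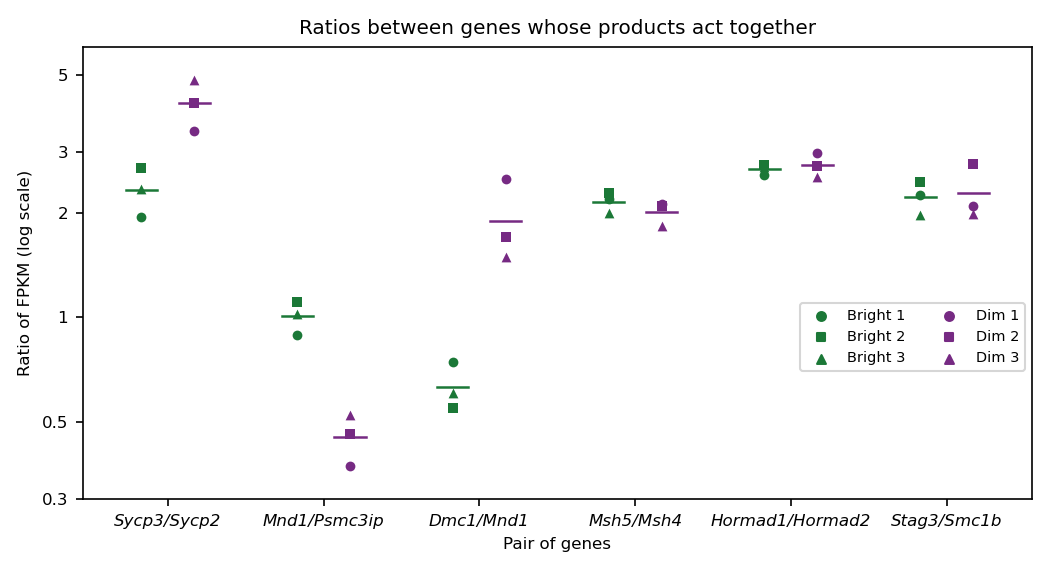
Ratio of FPKM (log axis) within each library for 6 pairs of genes, Bright in green left of Dim in purple, with the group mean as a line. Sycp3/Sycp2, Mnd1/Psmc3ip and Dmc1/Mnd1 separate the groups, and Msh5/Msh4, Hormad1/Hormad2 and Stag3/Smc1b overlap.

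The promoters of the 5 called genes are shown because these genes moved in different directions although they act in 1 process. Each window runs from 250 bases before to 50 after the RefSeq transcription start (GRCm38.p6), 5′ to 3′ on the strand of the gene. Capitals mark the motifs searched on both strands, the E-box CACGTG, which helix-loop-helix proteins bind, and the E2F-type motif GCGGGA or its reverse complement TCCCGC. The windows are chr10:88459337-88459636 (plus strand) for Sycp3, chr15:82082226-82082525 (plus) for Mei1, chr9:81863420-81863719 (plus) for Mei4, chr15:79605060-79605359 (minus) for Dmc1 and chr3:84155737-84156036 (minus) for Mnd1. The Mei1 window lies inside the gene as the deposited table places it (chromosome 15, 82069997 to 82126811, plus strand), so it is the RefSeq start and not the start of that gene model.
Sycp3: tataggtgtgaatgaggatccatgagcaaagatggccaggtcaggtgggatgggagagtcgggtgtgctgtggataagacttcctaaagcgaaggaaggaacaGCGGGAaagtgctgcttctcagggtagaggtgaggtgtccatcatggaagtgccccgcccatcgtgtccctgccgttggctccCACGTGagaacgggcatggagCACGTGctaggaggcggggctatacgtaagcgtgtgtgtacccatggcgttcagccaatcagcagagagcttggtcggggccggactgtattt
Mei1: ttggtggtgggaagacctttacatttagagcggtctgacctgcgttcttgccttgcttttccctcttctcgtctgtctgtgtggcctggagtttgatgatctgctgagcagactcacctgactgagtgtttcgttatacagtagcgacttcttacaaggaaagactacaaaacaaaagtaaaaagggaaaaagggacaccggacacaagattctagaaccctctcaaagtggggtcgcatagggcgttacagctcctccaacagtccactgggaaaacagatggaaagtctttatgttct
Mei4: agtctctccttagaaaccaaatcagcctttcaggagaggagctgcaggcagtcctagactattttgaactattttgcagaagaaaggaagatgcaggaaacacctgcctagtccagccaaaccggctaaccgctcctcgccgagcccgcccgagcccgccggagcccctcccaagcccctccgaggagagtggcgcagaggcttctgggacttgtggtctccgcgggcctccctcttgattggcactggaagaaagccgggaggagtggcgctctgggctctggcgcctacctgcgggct
Dmc1: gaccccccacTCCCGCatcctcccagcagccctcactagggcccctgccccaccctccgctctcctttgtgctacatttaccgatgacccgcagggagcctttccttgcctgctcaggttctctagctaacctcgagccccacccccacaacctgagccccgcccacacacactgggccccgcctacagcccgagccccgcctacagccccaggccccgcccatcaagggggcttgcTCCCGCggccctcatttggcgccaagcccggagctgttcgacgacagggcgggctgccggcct
Mnd1: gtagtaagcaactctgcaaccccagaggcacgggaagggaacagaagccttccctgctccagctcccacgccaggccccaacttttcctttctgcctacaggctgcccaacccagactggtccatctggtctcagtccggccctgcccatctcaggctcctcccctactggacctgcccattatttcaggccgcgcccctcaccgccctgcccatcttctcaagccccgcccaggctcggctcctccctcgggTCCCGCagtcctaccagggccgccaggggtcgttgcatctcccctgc

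The Sycp3 window held 2 E-boxes and 1 E2F-type motif, the Dmc1 window 2 E2F-type motifs and the Mnd1 window 1, and the Mei4 window and the internal Mei1 window held neither. Of the 34 genes, 30 had a window in the RefSeq table, 35 windows in all (none for Meiob, Tex11, Spo11 and Tex15). The E2F-type motif was in 22 of the 35 (62.9%), against 36.1% of 12569 windows of tested genes and 20.0% of all 32851 windows. The E-box was in 9 of the 35 (25.7%), against 10.3% of windows of tested genes and 7.15% of all windows, and all 9 of these also held the E2F-type motif. The windows of the 34 genes were close in composition to those of tested genes, with a median of 20 CpG and a GC content of 60.7%, against 21 CpG and 61.3% in windows of tested genes. Some windows of a gene overlap, a match is not a site, and no test was made.

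Other genes of the meiotic programme were read beside the 34. Of 25 tested meiotic prophase genes outside the list, 4 had a call toward Dim and 0 toward Bright (8 and 0 at an unadjusted p under 0.05). These genes are not limited to meiosis and include genes of general DNA repair, Exo1 and Rbbp8 among them. The 4 make up 16% of the list, against 10.5% of all genes toward Dim, and the 8 make up 32.0%, against 17.7%. The called genes were Prdm9, the histone methyltransferase that places breaks, at 2.31 ± 0.182 FPKM in Bright, against 14.9 ± 4.93 FPKM in Dim (adjusted p = 0.000644), and Ccdc36, which encodes IHO1, the partner of MEI4 and REC114, at 11.1 ± 1.51 FPKM in Bright, against 20.0 ± 1.94 FPKM in Dim (0.00681). Exo1, an exonuclease, measured 65.4 ± 11.9 FPKM in Bright, against 108.3 ± 7.17 FPKM in Dim (0.0135), and Rbbp8, which encodes CtIP of end resection, 24.7 ± 2.11 FPKM in Bright, against 36.7 ± 4.11 FPKM in Dim (0.0224; SD, n = 3 each). The median log2 fold change of the 25 was -0.22, beside -0.03 over all genes tested.

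Regulators of meiotic entry formed another list. Of 11 tested, 7 (63.6%) had a call toward Dim and 0 toward Bright, against 10.5% and 12.0% of all genes. At an unadjusted p under 0.05, 10 (90.9%) lay toward Dim and 0 toward Bright, against 17.7% of all genes in each direction. The median log2 fold change of the 11 was -1.11. The 4 with the largest change were Dmrtb1, a transcription factor gene, Kit, the receptor of differentiating spermatogonia, Meioc and Gm4969, which encodes MEIOSIN, at log2 fold changes of -3.65, -2.11, -2.02 and -1.47. Gm4969 measured 6.23 ± 0.686 FPKM in Bright, against 20.6 ± 9.16 FPKM in Dim (SD, n = 3 each, limma adjusted p = 0.019). The summed level of this list was 888.5 to 1063 FPKM in Bright, against 1549 to 1663 FPKM in Dim. The 34 genes summed to 1130 to 1451 FPKM in Bright, against 1529 to 1722 FPKM in Dim. Of 16 S phase genes 4 (25.0%) had a call toward Dim and 0 toward Bright, against 10.5% and 12.0% of all genes. At an unadjusted p under 0.05, 6 (37.5%) lay toward Dim and 0 toward Bright, against 17.7% of all genes in each direction. The 4 called were the cyclin E genes Ccne2 and Ccne1, the ribonucleotide reductase gene Rrm2 and the replication licensing gene Cdc6. Their log2 fold changes were -1.43 to -0.70.

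The libraries also differed by number, in a way that followed transcript length. In the 33 tested genes, the difference between Bright 2 and Bright 1 on log2(FPKM + 1) correlated with the log2 length of the longest GENCODE M21 transcript at r = -0.78 across genes, and that between Dim 2 and Dim 1 at r = -0.75. Over 12275 tested protein coding genes r was -0.58 and -0.57. Genes are not independent replicates, the points share libraries, and these values are descriptions. Syce3, with the shortest transcript (480 bases), was 2.02 times higher in Bright 2 than in Bright 1 and 1.94 times higher in Dim 2 than in Dim 1, while Tex15, with the longest (8405 bases), was at 0.566 times its Bright 1 level in Bright 2 and 0.553 times its Dim 1 level in Dim 2. The Bright minus Dim log2 fold change correlated with length at r = 0.05 in the 33 genes and 0.05 in the protein coding genes. Its median was -0.32 in the 16 genes with shorter transcripts (480 to 2670 bases) and -0.07 in the 17 with longer ones (2886 to 8405 bases). The part of length in the group difference was not tested.

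**Figure D4:**
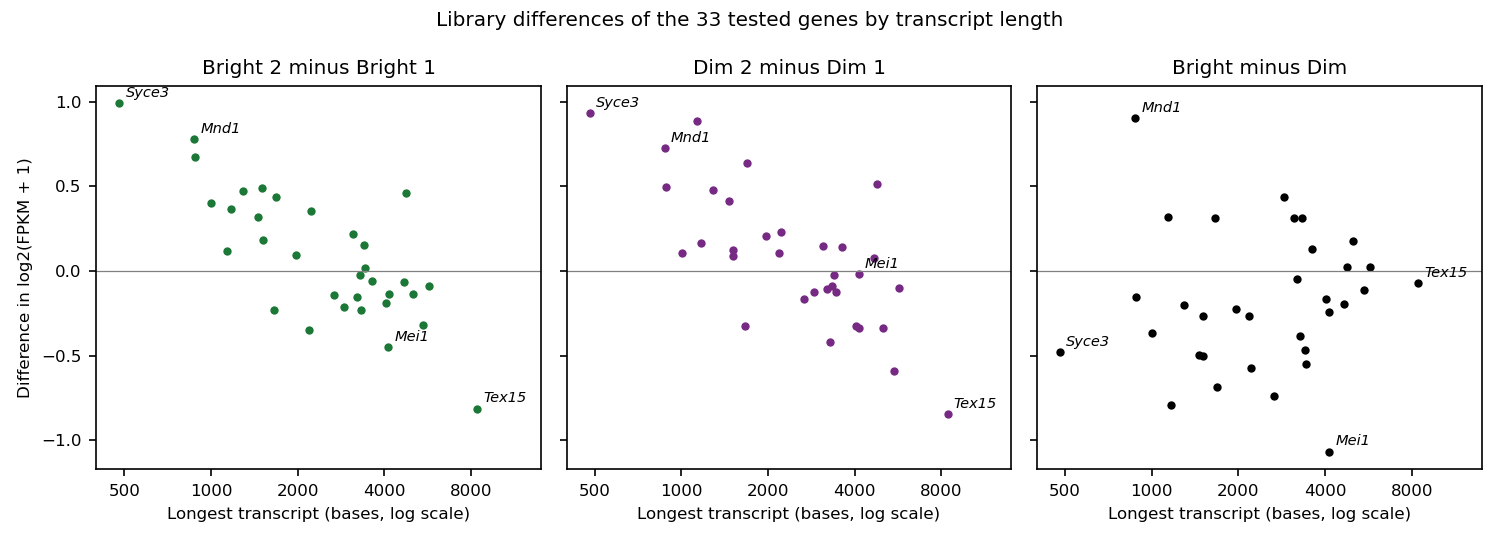
Difference in log2(FPKM + 1) against the length of the longest transcript (bases, log axis) for the 33 tested genes, for Bright 2 minus Bright 1, Dim 2 minus Dim 1 and Bright minus Dim. The library differences fall with length (r = -0.78 and -0.75) and the group difference has r = 0.05, with a median of -0.32 in the 16 shorter and -0.07 in the 17 longer genes.

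The authors' deposited table of GFPBright over GFPDim called 4 of the 34 genes at q under 0.05, Mei1, Sycp3 and Syce2 higher in Dim (5.81% of the 13416 genes in that direction) and Mnd1 higher in Bright (8.77%). Their log2 ratios in the authors' deposited table were -1.25, -0.73, -0.69 and 0.96, with q = 0.000921, 0.0158, 0.0295 and 0.0331. Mei4 and Dmc1 had log2 ratios of -0.79 and -0.55 in the authors' deposited table and were not called there (q = 0.107 and 0.109). Of the 5 calls by limma, 3 were called in the same direction in the authors' deposited table. The authors' deposited tables of single Bright against single Dim libraries called 0 of the 34 genes. Those tables called 0.134% to 0.224% of the 13416 genes, so a count of 0 among 34 says nothing about these genes.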

How the data were processed

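RNA was measured in 3 Bright and 3 Dim libraries, primed with oligo d(T) per the labels' protocols. The tools named are TopHat2 2.1.1 and Cufflinks 2.2.1, and the build mm9, per the submitters' processing notes, and the authors deposited FPKM per Ensembl gene. The authors also deposited log2 ratios with p-values and q-values per comparison, whose test settings are not given in the sources used here. The coordinates in the deposited table lie on GRCm38, identical to GENCODE M21 for 23 of the 34 genes and shifted at 1 or both ends for the others. Gene coordinates are given for identical ones and for Mei1, as the table states them. Those of Mei1 are shifted by 1 base at the start and 3 at the end. Library strand is not given.

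Read totals are not in the files. The lowest FPKM steps of single-transcript genes make 1 read per kilobase worth about 0.028 to 0.0462 FPKM, depending on the library. No counting intervals are given.

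FPKM were used unscaled as log2(FPKM + 1). The 13416 of 31918 genes that reached 1 FPKM in 3 or more libraries were fitted in limma 3.58.1 (R 4.3.3) with trend and robust moderation, the group as the only term, Benjamini-Hochberg adjustment and a threshold of 0.05. The procedure was tested on simulated data. Alternatives were another pseudocount, 2 other filters, median-ratio scaling, limma without trend and robust estimation, the replicate block and leaving out each library. Genes, lists and roles were chosen with earlier results of these data known. A gene got its value in every library when called, at a mean of at least 5 FPKM in a group, or without overlap, and Meiob and Spo11 were added for completeness. From other lists at most 4 called genes with the largest fold change were named, and Hspa2 and genes that share exon bases with a member were named after their values were seen.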

Additional observations from a re-analysis of the deposited data

How the results depend on the processing

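The calls of Sycp3, Mei1 and Mei4 were kept under all 12 alternatives. Of 5 genes called, 3 remained with no filter on low values, where 9.1% of all genes were called. Of these 3, 0 were higher in Bright, against 5.18% of all genes. With a filter of 0.1 FPKM in 3 libraries, 0 were higher in Bright, against 8.50% of all genes. In both settings more genes share the adjustment. Leaving out 1 library gave 3 to 9 genes called, 0 to 1 higher in Bright and 3 to 9 higher in Dim. Over all genes these fits gave 1957 to 2603 calls (14.59% to 19.4%). The median log2 fold change of the 33 was -0.26 to -0.13. Scaling by the median ratio added Trip13, moved the median over all genes by under 0.1 and left each direction as it was. With the replicate number as a term (replicate block), 17 of the 33 tested passed, with 5453 (40.65%) over all genes. Of the 33, 4 passed toward Bright, against 19.43% of all genes, and 13 toward Dim, against 21.21%. The replicate block called all 5 central region genes. Of the 34, 26 had the same sign in Bright against Dim for all 3 numbers. The authors' deposited comparisons of single libraries match equal numbers, but the labels name no shared animal, litter or day, and deviations from the group means correlated at 0.435 for number 1, 0.511 for number 2 and -0.194 for number 3, so the numbers are not treated as pairs. Bright 3 correlated best with Dim 1 (0.14).

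Signs reversed, in these fits, in 5 genes, none of them called in any. With 1 library left out, Sycp2 ranged from -0.0888 (without Dim 3) to 0.115, and was at -0.04 without Bright 1. Tex14 ranged from -0.20 (without Bright 2) to 0.233, with -0.07 without Dim 1 and -0.04 without Dim 3. Tex15 ranged from -0.262 to 0.16 (without Dim 1), with 0.15 without Bright 2. Mlh3 ranged from -0.264 to 0.0319 (without Dim 1), and Spata22 from -0.0909 to 0.0021 (without Bright 2). The cause was not tested.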
